A study of Mus musculus with 6 samples.

Results

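Within the mesenchymal cells of the mouse bladder mucosa, the Car3/Cxcl14 cells that carried at least 6 UMIs (unique molecular identifiers, each standing for 1 captured mRNA) of the contractile genes Acta2, Tagln and Myl9 were examined. They are called contractile Car3/Cxcl14 myofibroblasts here. A cell was taken as mesenchymal if it had over 500 detected genes, at least 10 UMIs of Col1a1, Col1a2, Col3a1 and Dcn, more of these than of 6 keratins and more than of Myh11, Des and Cnn1, no UMI of Ptprc or Pecam1, and at most 2 UMIs of Top2a, Mki67, Birc5 and Ube2c. It was taken as a Car3/Cxcl14 cell if Car3, Cxcl14 and Rbp4 together had at least 2 UMIs and exceeded each of the sums Pi16 and Mfap5, Has1, Scara5 and Bglap2, and Inmt, Sct and Ass1. Of 55399 cells in 6 libraries, 11421 were mesenchymal and 5705 were Car3/Cxcl14 cells, and 3342 of the latter, 6.03% of all cells, were contractile. The 1814 Car3/Cxcl14 cells with at most 3 UMIs of Acta2, Tagln and Myl9, called low-contractile, served for comparison, and the 549 cells with 4 or 5 UMIs were left between the classes.

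All 6 libraries came from wild type C57BL/6 mice aged 8 weeks, and each covered the bladder mucosa, which had been peeled off the bladder muscle and digested. The 2 healthy libraries were from untreated mice. The 2 acute libraries were collected 48 h after CPP (cyclophosphamide, a chemotherapy drug whose breakdown product damages the bladder lining), and the 2 chronic libraries after 4 rounds of CPP over 11 days. The labels do not give which mice entered which library, so p-values measure the spread between libraries. Droplets were captured with a 10x Genomics system, and the tables hold raw UMI counts per gene and cell.

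Myofibroblasts are collagen-producing cells that also build actin filaments with smooth muscle myosin partners, so that they can pull on the matrix they make. In the bladder they lie in the lamina propria, beneath the urothelium, where they are thought to respond to stretch and to signal to nerves and to the epithelium. Their contractile genes are classical targets of serum response factor (SRF), which works with the actin-sensing coactivators MRTF-A and MRTF-B and binds a short element named the CArG box.

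The members were spread very unevenly over the libraries. There were 550 and 234 in the healthy, 58 and 2429 in the acute and 35 and 36 in the chronic libraries (replicates 1 and 2 in this order). Acute replicate 2 thus held 72.7% of them and the chronic libraries 2.12%. Summed UMIs of the members were 2678326 and 664191 in the healthy, 282736 and 10806365 in the acute and 87733 and 116789 in the chronic libraries, so that 1 UMI stood for 11.4 and 8.56 CPM (the usual scaling of a gene's UMIs to the summed UMIs of its cells) in the chronic libraries. Between 36 and 229 cell barcodes were shared by any pair of libraries.

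Transcripts of these cells were also met in other cells, as free RNA can give. Among cells classed as urothelial, a UMI of Car3 was found in 45.6% in acute replicate 2 and in 1.57% to 8.90% in the other libraries, against 94.3% to 100% of the members. The median depth of these urothelial cells was 6022 to 10964 UMIs, against 2963 to 6225 in the members. In acute replicate 2, 82 of 6794 urothelial cells (1.21%, 95% Wilson interval 0.973 to 1.496) reached 6 UMIs of the contractile genes, against 0.0520% to 0.155% elsewhere.

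The name was checked against markers. Acta2, Tagln, Myl9, Car3, Cxcl14 and Rbp4 chose the cells and are a description only. Among markers outside the rule, Actg2 (gamma smooth muscle actin) was found in 52.4% to 74.8% of the members per library against 0.216% to 7.01% of urothelial cells, and Tnc (tenascin C, a matrix glycoprotein of remodelling tissue) in 39.7% to 87.9% against 0.135% to 10.8%. These shares set the members against urothelial cells only. Actg2 was at 319.6 to 1334 CPM in members, 30.8 to 342 CPM in low-contractile cells and 12.5 to 29.0 CPM in Pi16/Mfap5 fibroblasts. Tnc was at 251 to 628, 47.1 to 464 and 0 to 18.6 CPM in the same order. For both genes the members overlapped the low-contractile cells. Myh11, Des and Cnn1, defining genes of mature smooth muscle, are capped by the rule, so that their levels are a description and no check of the name. Des was at 0 to 7.07 CPM over the libraries, and Myh11 reached 81.8 to 179 CPM and Cnn1 6.72 to 279 CPM in members, and in low-contractile cells Myh11 was at 0 to 42.8 CPM. Rgs5, a marker of pericytes, was at 9.71 to 45.6 CPM, overlapping the Pi16/Mfap5 fibroblasts (11.2 to 41.4 CPM) and below urothelial cells (71.1 to 137 CPM). Over the 15 smooth muscle and mural markers, 14 of which were listed, the summed level was 306 to 748 CPM in members and 195 to 378 CPM in low-contractile cells, and none of the 14 was at 0 in all member libraries. Members were lower in healthy replicate 1 (306 against 354 CPM) and acute replicate 1 (368 against 378 CPM). The list holds Myh11, so that its sum is a description too. Cells with more smooth muscle than collagen transcripts numbered 24 in all libraries and were not compared.

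The limit of 6 UMIs cut through a continuous distribution. Just inside it, 9 to 301 cells per library had 6 or 7 UMIs of the 3 contractile genes, and just outside it 9 to 350 had 4 or 5. The median member held 9 to 16 UMIs of the 3 genes per library and the highest 139. Acta2 was at 908 to 2804 CPM in the members, 316 to 472 CPM in the cells between the classes and 51.7 to 185 CPM in low-contractile cells.

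The first comparison asked which genes other than those of the rule distinguish contractile from low-contractile Car3/Cxcl14 cells of the same library. For each library the UMIs of either class were added up, and the sums were tested in edgeR (quasi-likelihood, library as block, Benjamini-Hochberg adjustment). Of 5974 genes tested, 362 (6.06%) were higher and 403 (6.75%) were lower in the contractile cells, together 12.8%. Regardless of the test, 7.43% of genes were higher and 6.96% lower in contractile cells in 6 of 6 libraries. Among genes at 50 CPM or more in the higher class that moved the same way in every library, the rises were led by Fbxl22, Actg2 and Ctgf, and the falls by Clec3b and Entpd2. The call count was 368 without healthy replicate 1 and 487 without acute replicate 2.

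Members had more UMIs than low-contractile cells in 5 of 6 libraries (medians of 2963 to 6225 against 2391 to 4828.5), and most urothelial markers were lower in members. The summed level of 18 urothelial markers was 8566 to 22498 CPM in members and 11677 to 26723 CPM in low-contractile cells, higher in the latter in 6 of 6 libraries. Of the 17 markers tested 13 fell, where 6.75% of all genes fell. S100a6, which is not particular to the urothelium and did not pass the test (log2 fold change -0.13 ± 0.08 (SE), adjusted p = 0.314, edgeR), alone made 7089.5 to 15623.5 CPM of the sum in members. The part of either in the results was not tested directly. Cells were thinned to 3000 UMIs and classed again, with cells of fewer UMIs left out. This left 5 libraries, and 631 genes were called, 489 of them among the 765. With cells of at most 2 keratin UMIs, which left 3 libraries, 324 genes were called, 246 of them among the 765.

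Fbxl22, an F-box protein of the muscle Z-disc, showed the largest rise within these limits. It was at 40.7, 140.1 and 225 CPM (lowest, median and highest library) in contractile cells and at 0, 10.2 and 35.5 CPM in low-contractile cells, so that the classes did not overlap. The lowest contractile value, in chronic replicate 2, rested on few UMIs, each worth 8.56 CPM. Fbxl22 was 8.01-fold higher (log2 fold change 3.002 ± 0.16 (SE), adjusted p = 1.1e-10, edgeR). Actg2 followed with 346, 568 and 1194 CPM against 31.5, 63.8 and 339 CPM, a 7.38-fold rise (log2 fold change 2.88 ± 0.18 (SE), adjusted p = 8.91e-10, edgeR), higher in 6 of 6 libraries. The low-contractile cells of healthy replicate 2 lay at the lower end of the contractile range, just under it on this TMM scale and inside it on plain CPM (319.6 to 1334 against 30.8 to 342 CPM). Actg2 and Acta2 are near-identical in their coding sequence. Whether reads from the 3' ends captured here were confused between them was not tested, and the value is uncertain to that extent.

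Ctgf (Ccn2), a matricellular target of YAP and of TGF-beta, was at 49.3, 75.0 and 111 CPM in contractile and 8.85, 13.9 and 18.9 CPM in low-contractile cells, again without overlap (4.61-fold, log2 fold change 2.21 ± 0.16 (SE), adjusted p = 9.46e-09, edgeR). Mylk, the kinase that phosphorylates myosin light chains and so starts contraction, was at 327, 535 and 799 CPM against 85.3, 204 and 274 CPM (2.92-fold, log2 fold change 1.54 ± 0.10 (SE), adjusted p = 8.91e-10, edgeR). Both were higher in contractile cells in 6 of 6 libraries. Within the same limits, the next largest rises were those of the LIM-domain cofactors Fhl2 (log2 fold change 1.29) and Fhl1 (1.18), the lipid phosphatase-related Plppr5 (1.29), the tropomyosins Tpm2 (1.28) and Tpm1 (1.16), the growth factor Pdgfc (1.14), cyclin D1 (Ccnd1, 1.08) and the microtubule-binding Map1b (1.05), with adjusted p (edgeR) from 9.7e-09 for Tpm1 to 0.000228 for Map1b. Among these 12 genes, Map1b was the only one that missed the threshold without acute replicate 2 (0.581 on the log2 scale).

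**Figure D1:**
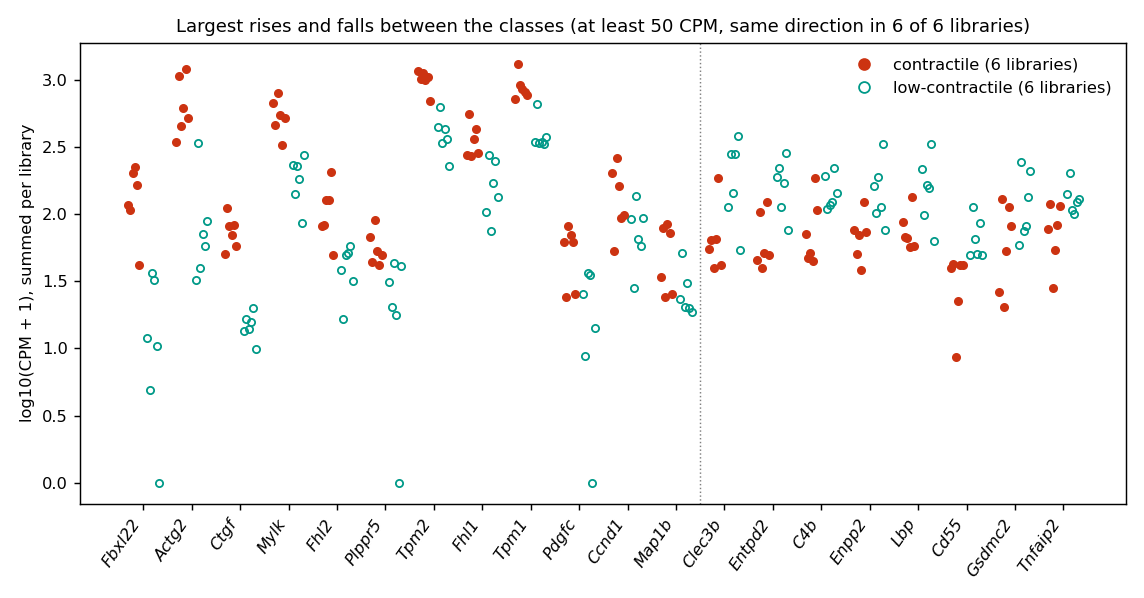
Level of the 12 genes with the largest rises (left of the dotted line) and the 8 with the largest falls between the classes, among genes at 50 CPM or more that moved the same way in 6 of 6 libraries, as log10(CPM + 1) with a point per library, filled for contractile and open for low-contractile cells. Fbxl22 and Ctgf show no overlap between the classes, and Clec3b and Entpd2 are lower in contractile cells within each library although the ranges overlap.

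Promoters of the rising genes were searched for the CArG box, since contractile genes carry it. The search covered the 300 bases from 250 before to 50 after each transcription start in RefSeq's annotation of GRCm38.p6. Only the strict form CCWWWWWWGG, with W for A or T, was counted, a pattern that reads the same way on both strands. It was found for 488 of 27025 genes (1.81%) and for 92 of the 4622 tested genes with an entry (1.99%). Among the genes that rose it was found for 17 of 281 with an entry (6.05%), and among those that fell for 7 of 287 (2.44%). Of the 12 rises named above, 9 had an entry and 4 of these held the element, namely Fbxl22, Fhl2, Fhl1 and Pdgfc. Actg2, Ctgf and Ccnd1 had no entry and were not searched. Of the rule's own contractile genes, Myl9 held the strict form and Acta2 did not in this window, while Tagln had no entry and was not searched. The Acta2 window held ccctatatgg and ccttgtttgg, which depart from that form by a C or a G in the middle and were not counted. A match is a description of the sequence, and binding was not measured. These 5 promoters are shown because they hold a match, among the rises named above and, for Myl9, among the genes that chose the cells, with the CArG box in capitals and all bases written from 5′ to 3′ on the gene's strand.
Fbxl22: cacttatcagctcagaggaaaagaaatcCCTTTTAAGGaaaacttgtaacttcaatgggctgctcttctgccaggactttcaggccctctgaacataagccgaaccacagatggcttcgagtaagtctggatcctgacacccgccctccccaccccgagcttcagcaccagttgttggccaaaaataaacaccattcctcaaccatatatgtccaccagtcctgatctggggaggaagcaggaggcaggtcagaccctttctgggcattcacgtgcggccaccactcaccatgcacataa
Fhl2: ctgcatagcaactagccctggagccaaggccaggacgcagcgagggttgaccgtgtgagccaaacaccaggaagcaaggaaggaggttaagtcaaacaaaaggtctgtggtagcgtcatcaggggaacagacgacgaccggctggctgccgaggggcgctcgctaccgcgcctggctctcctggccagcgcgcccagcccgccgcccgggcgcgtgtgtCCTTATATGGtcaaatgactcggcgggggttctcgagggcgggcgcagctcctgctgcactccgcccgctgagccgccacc
Fhl1: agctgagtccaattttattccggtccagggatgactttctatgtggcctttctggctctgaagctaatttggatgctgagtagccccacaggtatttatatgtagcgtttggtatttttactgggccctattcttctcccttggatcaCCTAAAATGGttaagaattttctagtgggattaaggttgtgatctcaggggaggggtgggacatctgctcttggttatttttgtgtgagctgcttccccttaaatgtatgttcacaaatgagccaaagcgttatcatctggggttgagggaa
Pdgfc: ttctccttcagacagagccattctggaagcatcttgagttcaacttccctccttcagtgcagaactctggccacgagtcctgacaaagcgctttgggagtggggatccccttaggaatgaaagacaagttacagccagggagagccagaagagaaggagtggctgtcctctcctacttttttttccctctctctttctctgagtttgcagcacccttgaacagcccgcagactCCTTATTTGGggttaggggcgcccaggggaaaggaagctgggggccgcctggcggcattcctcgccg
Myl9: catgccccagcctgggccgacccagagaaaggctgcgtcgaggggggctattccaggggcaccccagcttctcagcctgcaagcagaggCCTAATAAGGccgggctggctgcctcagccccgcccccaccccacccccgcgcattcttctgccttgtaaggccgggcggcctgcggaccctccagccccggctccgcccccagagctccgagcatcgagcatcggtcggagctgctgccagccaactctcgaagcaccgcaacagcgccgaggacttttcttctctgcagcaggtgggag

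The windows lie at chr9:66514544-66514843 (minus strand) for Fbxl22, chr1:43163912-43164211 (minus strand) for Fhl2, chrX:56779433-56779732 (plus strand) for Fhl1, chr3:81036166-81036465 (plus strand) for Pdgfc and chr2:156775214-156775513 (plus strand) for Myl9. The element began 222 bases before the start of Fbxl22, 102 before that of Fhl1, 31 before that of Fhl2, 17 before that of Pdgfc and 161 before that of Myl9. A second annotated start of Fhl2 also had 1 match, 96 bases before it, whereas the second start of Fhl1 had none.

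Most genes of the contractile apparatus rose. The classes were cut on Acta2, Tagln and Myl9, so genes that vary with these were likely to rise. The counts are therefore a description and no independent support for the classes. Of 38 listed genes, 32 were tested, 26 rose and none fell, where 6.06% of all genes rose and 6.75% fell, and the median log2 fold change was 0.76 against -0.01 over all genes tested. By level the group was led by Myl6, the essential light chain of myosin, at 1667, 2111 and 3531 CPM against 1033, 1191 and 2051 CPM (log2 fold change 0.76 ± 0.09 (SE), adjusted p = 4.37e-06, edgeR), and by Csrp2, a LIM protein, which did not pass the test (log2 fold change 0.31 ± 0.12 (SE), adjusted p = 0.0882, edgeR). Lmod1, which nucleates actin filaments in smooth muscle, was at 16.3, 62.4 and 133 CPM against 0, 10.0 and 18.9 CPM with a log2 fold change of 2.84, and Pdlim3, a Z-disc scaffold, had one of 2.02, each higher in 5 of 6 libraries. The adhesion and cross-linking proteins had smaller values, with Actn1 at 1.147, Vcl (0.94), Flna (0.71) and Tln1 (0.40). With cells of at most 2 keratin UMIs 16 of 31 members rose, in a fit where 156 of 6201 genes rose in all. The 3 smooth muscle genes that the rule caps, Myh11 (2.34), Cnn1 (2.83) and Des, belong to the rule and were not tested.

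**Figure D2:**
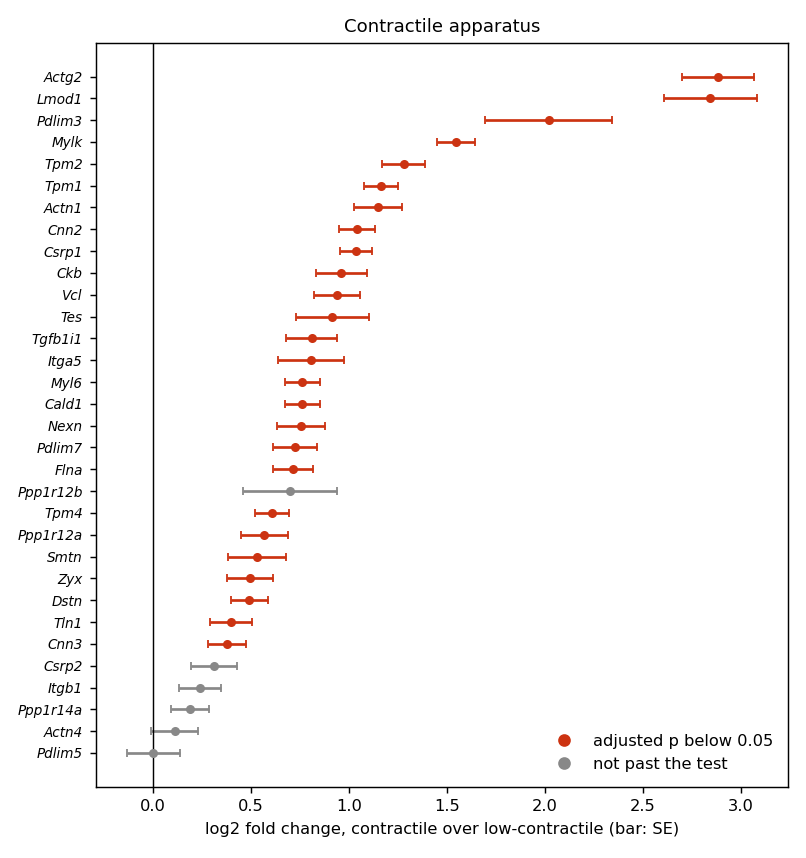
Log2 fold change between contractile and low-contractile cells of the 32 tested genes of the contractile apparatus, with bars for the standard error and red points for an adjusted p below 0.05 (edgeR). All 32 lie at or above 0, and 26 passed the test.

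The regulators are read against the 6.06% of all genes that rose and the 6.75% that fell. Of 8 tested genes on a list of SRF, MRTF and related factors, 2 rose (Fhl1 and Fhl2) and 1 fell (Lmo7, -0.86), with a median of 0.06. Tcf21, the most abundant gene on that list and itself neither SRF nor an MRTF, differed by -0.01. Of 10 tested YAP targets, 5 rose and none fell (median 0.35). Beside Ctgf these were Amotl2 (0.64), Lats2 (0.56), the coagulation initiator F3 (0.56) and Cyr61 (0.44), whereas Axl had a log2 fold change of 0.08 with an adjusted p of 0.663 (edgeR).

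Of 45 tested genes of the interstitial matrix 21 rose and 8 fell (median 0.22), against 6.06% and 6.75% of all genes. Sparc, which binds collagen, was the most abundant at 7899, 10033 and 15546 CPM against 3609.6, 6289.8 and 9439 CPM and rose (log2 fold change 0.86 ± 0.09 (SE), adjusted p = 1.02e-06, edgeR). Tnc was at 225, 511 and 679.7 CPM against 46.7, 278 and 456 CPM and rose in 6 of 6 libraries (2.03-fold, log2 fold change 1.02 ± 0.14 (SE), adjusted p = 4.63e-05, edgeR). Ogn (osteoglycin) rose by 1.12, Lox, the collagen cross-linking enzyme, by 0.87, and Thbs2 by 0.77. The falls were those of Abi3bp (-2.01), Sparcl1 (-1.56), the tenascin Tnxb (-1.49), Lum (-1.08), Col14a1 (-0.92), Matn2 (-0.89), Fbln1 (-0.75) and Efemp1 (-0.41). With cells of at most 2 keratin UMIs 10 of 45 genes rose and 8 fell, in a fit where 156 of 6201 genes rose and 168 fell in all.

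In the basement membrane 3 of 17 genes rose and 2 fell (median 0.10), against 6.06% and 6.75% of all genes. Both chains of type IV collagen that form its common trimer rose, Col4a1 from 123, 342 and 814 CPM to 388, 664 and 837 CPM (log2 fold change 0.82 ± 0.11 (SE), adjusted p = 4.25e-05, edgeR) and Col4a2 by 0.96, as did Egflam (0.69), and Col15a1 was among the falls (-1.16). Of 22 matrix proteases and inhibitors 6 rose and 1 fell (median 0.21), the fall being no larger a share than that of all genes. The rises included Serpinh1, the collagen chaperone, at 2537, 3445 and 4855 CPM against 1592, 2093 and 3659.8 CPM (0.60), Adamts9 (0.59) and Adam19 (0.55), and the fall was Serpine2 (-1.49). Cst3 had 0.32 and did not pass.

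Of 6 tested neurotrophic factors 3 rose (Bdnf, Ntf3 and Manf) and none fell (median 0.31), against 6.06% and 6.75% of all genes. Bdnf, a neurotrophin, was at 24.6, 63.5 and 138 CPM against 11.99, 34.8 and 107 CPM (log2 fold change 1.03 ± 0.18 (SE), adjusted p = 0.000471, edgeR) and was higher in 5 of 6 libraries, but lost the call without healthy replicate 1 (log2 fold change 0.693) and with at most 2 keratin UMIs (0.660). Ntf3, another neurotrophin, rose by 0.92 at a low level of 10.2, 31.4 and 69.5 CPM. Dkk2, a secreted Wnt antagonist, was at 429, 534 and 718 CPM against 208, 371 and 591 CPM (log2 fold change 0.56 ± 0.10 (SE), adjusted p = 0.000525, edgeR). Igf1 rose by 0.69 and Bmp4 by 0.39, the latter with an adjusted p of 0.0147 (edgeR) that was lost without healthy replicate 1 (0.350), with called doublets left out (0.303) and with at most 2 keratin UMIs (0.196). Bmp5 (0.32), Mdk (0.31) and Fgf7 (0.42), the keratinocyte growth factor, did not pass, and Fgf7 was at only 19.3, 27.4 and 53.9 CPM. Of the 16 tested genes that the paper singles out in mesenchymal cells 5 rose and 5 fell, beside the same shares of all genes. The falls were Cd34 (-1.88), Clec3b (-1.74), Chodl (-1.69), Lum (-1.08) and Efemp1 (-0.41), and Hoxa10 (0.38), Pitx1 (0.22) and Tcf4 (-0.07) did not pass. That list was partly chosen on these libraries and is not independent of them.

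Of the signalling pathways, the Hedgehog list had 2 rises and 1 fall among 11 genes (median 0.25). Hhip, a decoy receptor that Hedgehog signalling induces, was at 51.0, 167 and 357 CPM against 9.47, 110.0 and 156 CPM (1.95-fold, log2 fold change 0.96 ± 0.13 (SE), adjusted p = 3.31e-05, edgeR), and the receptor Ptch1, another target, rose by 0.41, while Gli1 had 0.30 and did not pass. Shh, a ligand made by the urothelium, fell by 0.49 on the log2 scale, alongside the urothelial markers. In the BMP list 5 of 16 genes rose and 1 fell (median 0.14), among them the antagonists Fstl3 (0.71) and Fstl1 (0.39). Of 17 TGF-beta genes 1 rose, Tgfbi (0.83), and 1 fell, Tgfbr3 (-0.47), shares near the 6.06% and 6.75% of all genes. Of 16 Wnt genes 4 rose and 3 fell, among them Nkd1 (0.63), Frzb (0.66) and Sfrp1 (-2.09). The IGF axis had 2 rises and 2 falls among 7 genes, with Igfbp7 (0.52) up and Igfbp4 and Igfbp2 (-0.76) down. None of the 6 tested FGF genes passed, and the lowest adjusted p (edgeR) among them was 0.156 for Spred2.

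Among receptors, channels and gap junctions 2 of 15 rose and 1 fell, and over all genes 6.06% rose and 6.75% fell, so that 1 fall is near that share. Avpr1a, a vasopressin receptor, was at 122, 146 and 169.7 CPM against 47.4, 78.0 and 155 CPM (log2 fold change 0.42 ± 0.12 (SE), adjusted p = 0.0276, edgeR), F2r, the thrombin receptor, rose by 0.60, and the gap junction gene Gja1 (connexin 43) fell from 58.4, 91.3 and 207 CPM to 41.6, 67.6 and 128 CPM (-0.46). Pdgfra had -0.20 and did not pass. Of 21 positional transcription factors 4 rose and 3 fell, with Tbx20 (0.49), Sox4 (0.40) and Creb3l1 (0.44) up and Sox9 (-0.73), Osr1 (-0.71) and Meis2 (-0.55) down. In the retinoid list 2 of 9 rose and 1 fell, with Aldh1a2, which makes retinoic acid, up by 0.46. Of 15 heat shock genes 3 rose, the small chaperones Cryab (0.78) and Hspb1 (0.59) and Hsp90aa1 (0.28), and none fell.

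The lists of inflammation and stress are read against the 6.06% of all genes that rose and the 6.75% that fell. Of 17 chemokines and cytokines 4 fell and 1 rose (median -0.27). Il6 was at 10.9, 103 and 224 CPM against 15.2, 151 and 407 CPM (log2 fold change -0.75 ± 0.12 (SE), adjusted p = 0.000157, edgeR), Icam1 had -0.82 and Il33 -0.83, and Ccl8 was the rise (0.84). Of 28 interferon response genes 4 fell and none rose (median -0.18), led by Ifit1 (-0.73). Of 13 genes of complement and eicosanoids 3 fell, among them C4b (-1.32) and Cd55, and C2 rose (0.46). Of 23 immediate-early genes 3 fell, Klf4 (-0.45), Egr1 (-0.39) and Fosb (-0.32), and 1 rose, Klf2 (0.61), whereas Fos, at 2312, 4208 and 6455 CPM and 1953, 4666 and 6092 CPM, did not pass. Of 16 p53 targets 3 fell, Perp (-0.69), Mdm2 (-0.61) and Cdkn1a (-0.39), where Perp, also a urothelial gene, had 0.237 with at most 2 keratin UMIs, and of 16 genes of glycolysis and hypoxia 1 fell (Ndrg1, -0.40), a share near that of all genes. Of 10 EGF and PDGF family ligands 4 fell, among them Areg (-0.71), Hbegf (-0.45) and Vegfa (-0.76), and Pdgfc was the rise.

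Within the same limits the falls were led by Clec3b and Entpd2. Clec3b (tetranectin, a plasminogen-binding protein) was at 38.6, 58.7 and 184 CPM in contractile and 53.1, 211 and 379 CPM in low-contractile cells (3.34-fold lower, log2 fold change -1.74 ± 0.16 (SE), adjusted p = 1.46e-07, edgeR). Entpd2, an enzyme that degrades extracellular ATP, was at 38.6, 49.5 and 122 CPM against 75.2, 179 and 284 CPM (3.26-fold lower, log2 fold change -1.70 ± 0.13 (SE), adjusted p = 1.92e-08, edgeR). Both were lower in contractile cells in 6 of 6 libraries, although the ranges overlapped between libraries. The others were the complement gene C4b, Enpp2 (autotaxin, -1.32), the lipopolysaccharide-binding protein Lbp (-1.31), Cd55, Gsdmc2 (-0.92) and Tnfaip2 (-0.90). Of the 4 tested markers of other fibroblast groups outside the rule 2 fell, with a median of -0.97, where 6.75% of all genes fell.

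Markers of blood cells behaved differently. The 3 tested erythroid genes, Hbb-bs (2.87), Hba-a1 (2.76) and Hba-a2 (3.89), were called higher in contractile cells, but their summed level was 1039 CPM in contractile cells of healthy replicate 1 against 0 to 199 CPM in the other 5 libraries, and without healthy replicate 1 the values for Hbb-bs and Hba-a1 were -0.501 and -0.699. Endothelial, macrophage and mesothelial lists had 1 tested gene each, of which Upk3b of the mesothelial list fell (-0.44) and Eng (0.19) and Cd74 (-0.24) did not pass, and no lymphocyte or Schwann cell marker was abundant enough to test. Of 3 tested mural markers 1 fell (Ndufa4l2, -0.40). Over all genes 6.06% rose and 6.75% fell, and lists of 1 to 3 genes are too short to be read against these shares. Of the sex genes, the Y-linked Ddx3y (-0.17) and Eif2s3y (-0.28) did not pass.

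Levels in the other mesenchymal cells placed these differences. They are given as CPM over libraries with at least 20 cells of a group and without a test, since the groups were cut by genes that vary with them. Actg2 was at 319.6 to 1334 CPM in contractile and 30.8 to 342 CPM in low-contractile cells, both above the 12.5 to 29.0 CPM of 3498 Pi16/Mfap5 fibroblasts and the 0 to 26.9 CPM of 1152 Has1/Scara5/Bglap2 fibroblasts. The Inmt/Sct/Ass1 fibroblasts, at 14.8 to 41.8 CPM, overlapped the low-contractile cells. Fbxl22 was at 42.8 to 208, 8.11 to 21.5 and 2.06 to 26.4 CPM in contractile cells, Pi16/Mfap5 and Has1/Scara5/Bglap2 fibroblasts, and low-contractile cells (0 to 35.6 CPM) overlapped the fibroblasts. Tpm2 was at 253 to 358 CPM in the Pi16/Mfap5 fibroblasts, a range that low-contractile cells overlapped (229.8 to 632 CPM).

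Tnc was at 251 to 628 CPM in contractile and 47.1 to 464 CPM in low-contractile cells, at 0 to 18.6 CPM in Pi16/Mfap5 and at 0 to 66.0 CPM in Has1/Scara5/Bglap2 fibroblasts. Hhip was at 57.0 to 330.5, 10.8 to 153 and 1.60 to 15.0 CPM in contractile cells, low-contractile cells and Pi16/Mfap5 fibroblasts. For Tnc both Car3/Cxcl14 classes lay above the Pi16/Mfap5 fibroblasts in every library, but the low-contractile cells overlapped the Has1/Scara5/Bglap2 fibroblasts. For Hhip the contractile cells lay above the Pi16/Mfap5 fibroblasts and the low-contractile cells overlapped them. Clec3b ran the opposite way, with 1861 to 2929 CPM in Pi16/Mfap5 fibroblasts, 1029 to 2368 CPM in Has1/Scara5/Bglap2 fibroblasts, 54.1 to 433 CPM in low-contractile and 35.4 to 205 CPM in contractile cells. Entpd2 was at 364 to 586 CPM in Pi16/Mfap5 fibroblasts, 76.6 to 325 CPM in low-contractile and 35.4 to 137 CPM in contractile cells, and the Has1/Scara5/Bglap2 fibroblasts (185 to 527 CPM) overlapped the low-contractile cells. Ctgf did not follow this order, since its 22.5 to 57.7 CPM in Pi16/Mfap5 fibroblasts lay above the 9.01 to 21.6 CPM of low-contractile cells.

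**Figure D3:**
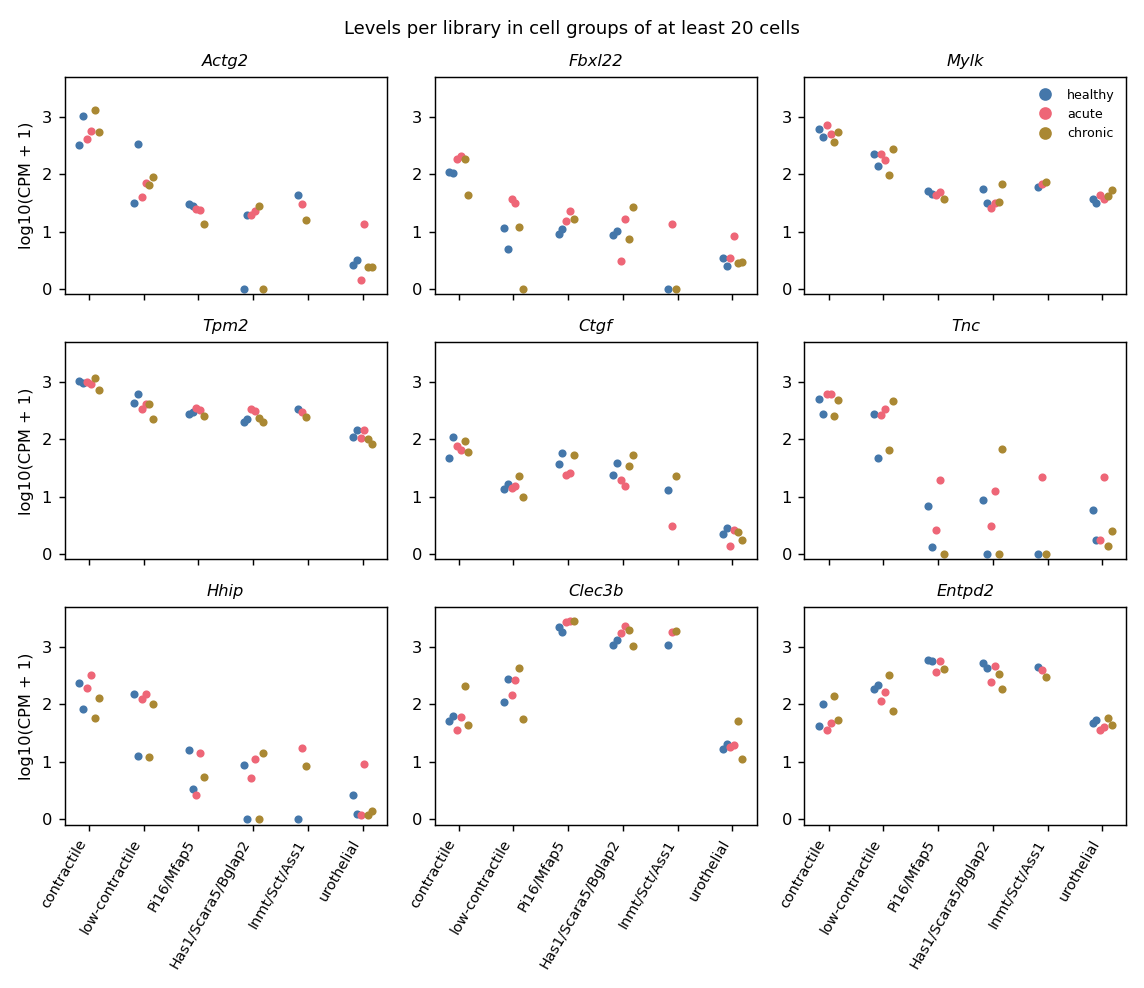
Level of 9 genes, as log10(CPM + 1), in contractile and low-contractile Car3/Cxcl14 cells, 3 groups of fibroblasts and urothelial cells, with a point per library that held at least 20 cells of the group, coloured by condition. Tnc and Actg2 are above the Pi16/Mfap5 fibroblasts in both Car3/Cxcl14 classes, Fbxl22 is above them in contractile cells and overlaps them in low-contractile cells, and Clec3b is higher in the 3 fibroblast groups than in either class.

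Within the members several of these genes were graded. Cells with 6 to 9, 10 to 19 and at least 20 UMIs of Acta2, Tagln and Myl9 could be summed in the 3 libraries with at least 20 cells at each step, healthy replicates 1 and 2 and acute replicate 2, again as a description without a test. Actg2 was at 157, 279 and 546 CPM in healthy replicate 1, 692, 817 and 1756 CPM in healthy replicate 2 and 210.4, 337 and 906 CPM in acute replicate 2 over these steps. Fbxl22 was at 49.9, 105 and 174 CPM, 29.4, 113 and 173 CPM and 70.9, 156 and 307 CPM. Both were higher at each further step in 3 of 3 libraries, as were Ctgf, Mylk, Fhl2, Tpm1, Tpm2, Pdgfc, Hhip and Sparc. Fhl1, Plppr5, Map1b and Tnc were so in 2 of 3 and Ccnd1, Bmp5, Igf1 and Fgf7 in 1 of 3, while Entpd2 was lower at each step in 3 of 3 and Clec3b in 2 of 3. Car3, which marks these cells and is part of the rule, went from 3216 to 5391 CPM in healthy replicate 1. The urothelial keratin Krt5 was lower at each step in 3 of 3 libraries, from 108 to 54.8 CPM in healthy replicate 1, and its part in the gradient was not tested.

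The second question was whether CPP changed how many Car3/Cxcl14 cells were contractile. The contractile share was 49.5% (95% Wilson interval 46.6 to 52.5) and 59.4% (54.5 to 64.1) in the healthy, 35.2% (28.3 to 42.7) and 63.2% (61.7 to 64.7) in the acute and 39.8% (30.2 to 50.2) and 33.6% (25.4 to 43.0) in the chronic libraries. The acute libraries lay on both sides of the healthy libraries, and the chronic libraries lay below them. The intervals cover counting error only.

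The mean share was 54.5% ± 6.96 (SD, n = 2) in healthy, 49.2% ± 19.9 (SD, n = 2) in acute and 36.7% ± 4.33 (SD, n = 2) in chronic libraries. The differences from healthy were -5.28 percentage points in the acute (exact two-sided permutation test, p = 1) and -17.8 in the chronic libraries (p = 0.333 by the same exact test, the smallest that 2 libraries against 2 allow). After cells were thinned to 3000 UMIs, with cells of fewer UMIs left out, the chronic difference was -2.92 percentage points. The shares were 61.5% and 23.3% in the chronic libraries against 30.0% and 60.7% in the healthy, so that the groups overlapped. Chronic replicate 1 then held 26 Car3/Cxcl14 cells in place of 88, and 16 of its 35 members and 9 of its 44 low-contractile cells had reached 3000 UMIs. As shares of all cells, members made up 6.59% and 2.42% in the healthy, 0.840% and 17.5% in the acute and 0.311% and 0.673% in the chronic libraries. All mesenchymal cells together were 24.7% and 20.4%, 7.98% and 37.9%, and 12.6% and 2.82% of cells in the same order, and the part of this in the shares of all cells was not tested.

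**Figure D4:**
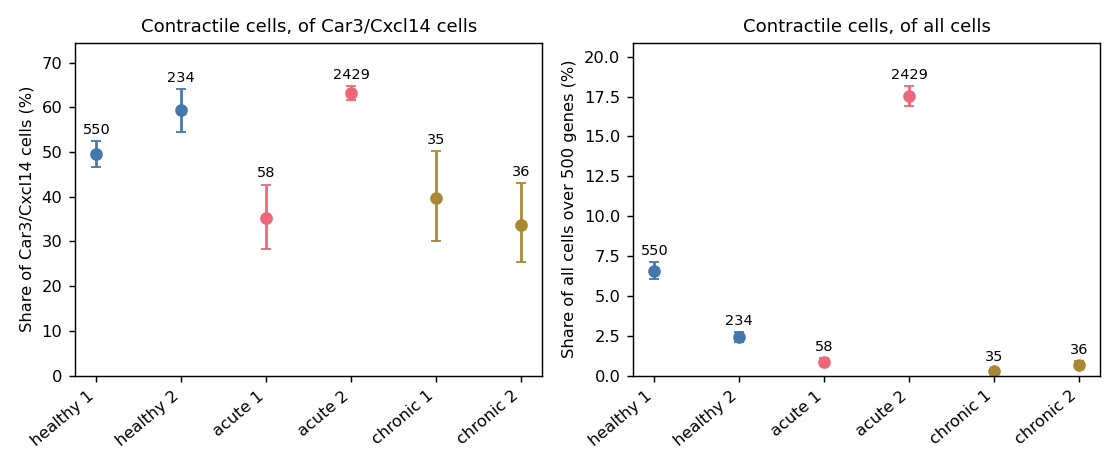
Contractile cells as a share of Car3/Cxcl14 cells (left) and of all cells with over 500 genes (right) per library, in percent, with 95% Wilson intervals as bars and the number of contractile cells above each point. The acute libraries lie at 35.2% and 63.2% on the left, on both sides of the healthy libraries.

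Gene expression of the members was then compared between conditions, with all 6 libraries in 1 edgeR fit and 6838 genes tested. Acute against healthy gave 3 calls, all lower (0.0439%), chronic against healthy gave 0 and acute against chronic gave 0. An unadjusted p below 0.05 was reached by 195, 326 and 425 genes, and DESeq2 called 5, 5 and 0. The acute and the chronic comparison share the healthy libraries and are not independent of each other. Without acute replicate 1, which held 58 members, the 3 comparisons gave 58, 7 and 25 calls, without healthy replicate 1 they gave 15, 1 and 1, and without acute replicate 2 they gave 1, 1 and 0. In each of these fits a group was left with 1 library, which is assumed to vary like the other groups.

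The 3 calls in acute libraries were the haemoglobin genes Hbb-bs and Hba-a1 and the chemokine Ccl5. Hbb-bs was at 683 and 105 CPM in the healthy, 0 and 0.397 CPM in the acute and 20.5 and 0 CPM in the chronic libraries (adjusted p = 0.0497, edgeR), Hba-a1 had 244 and 63.6 CPM in the healthy and 0 and 0.993 CPM in the acute libraries, and Ccl5 42.8 and 86.4 against 0 and 1.89 CPM. Haemoglobin is made by red cells, and the source of these 3 transcripts in the members was not tested. The 2 calls in the erythroid list were the only members of any list to pass in the main edgeR fit in any of the 3 comparisons. Hba-a1 and its copy Hba-a2 are near-identical, and how reads that match both were counted was not tested. There were 0 calls without chronic replicate 1 (310 at an unadjusted p below 0.05) and 0 without chronic replicate 2 (298), DESeq2 not being run there.

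Genes of the contractile apparatus are given between conditions as values, because the cells were chosen for contractile UMIs and because few genes of any kind passed. At most 3 of 6838 passed in the main edgeR fit and at most 5 in DESeq2 in these comparisons. Of 32 tested, 3 were higher and 3 lower in both acute than in both healthy libraries (16.0% of all genes each way), and 1 was higher and 8 were lower in both chronic libraries (10.2% and 26.9% of all genes). The median log2 fold change was -0.01 in acute and -0.14 in chronic against healthy, beside -0.02 and -0.04 over all genes. Actg2 was at 343 and 1047 CPM in the healthy, 435 and 612 CPM in the acute and 1198 and 502 CPM in the chronic libraries (log2 fold change -0.41 ± 0.53 (SE) in acute and 0.43 ± 0.55 in chronic against healthy), with each condition overlapping the others. Acta2, a gene of the rule, was at 1422 and 2438 CPM in the healthy, 1512 and 1868 CPM in the acute and 2518 and 831 CPM in the chronic libraries, and Mylk at 663 and 453 CPM in the healthy, 769 and 546 CPM in the acute and 328 and 502 CPM in the chronic libraries. Tpm2 was at 1141 and 992 CPM in the healthy, 1073 and 992 CPM in the acute and 1044 and 667 CPM in the chronic libraries, lowest in chronic replicate 2.

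Cxcl14, Rbp4 and Car3 belong to the selection rule, so their levels are a description without a test. Cxcl14, a chemokine, was at 6626 and 5762 CPM in the healthy, 9352 and 9814 CPM in the acute and 5844 and 2902 CPM in the chronic libraries, and both acute libraries were above the others. Rbp4, a retinol carrier, was at 1876 and 1039 CPM in the healthy, 2418 and 1407 CPM in the acute and 522 and 494 CPM in the chronic libraries, so that the chronic libraries were the lowest. Car3, a carbonic anhydrase, was at 4547 and 5045 CPM in the healthy, 6875 and 6600.2 CPM in the acute and 7144 and 2753 CPM in the chronic libraries, with the chronic libraries on both sides of the others. Tnc was at 553 and 274 CPM in the healthy, 649.9 and 675 CPM in the acute and 225 and 447 CPM in the chronic libraries, with both acute libraries highest (log2 fold change 0.68 ± 0.40 (SE), adjusted p = 1, edgeR).

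None of the ligands passed the test. Dkk2 was at 543 and 529 CPM in the healthy, 691 and 526 CPM in the acute and 429.9 and 494 CPM in the chronic libraries, Bmp4 at 631 and 421 CPM in the healthy, 649.9 and 354 CPM in the acute and 645 and 431 CPM in the chronic libraries and Bmp5 at 381 and 233 CPM in the healthy, 419.7 and 322 CPM in the acute and 246 and 243 CPM in the chronic libraries. Fgf7 was at 28.0 and 53.02 CPM in the healthy, 18.6 and 26.2 CPM in the acute and 30.7 and 23.5 CPM in the chronic libraries. Both acute libraries thus lay below both healthy libraries for Fgf7, as they did for 16.0% of all genes. The paper reports the other direction, a rise of Fgf7 in Acta2+ myofibroblasts after acute injury, in cells grouped by clustering and not by this rule. The Fgf7 level here rested on few UMIs in the chronic libraries and in acute replicate 1, where 1 UMI stood for 3.54 CPM. The log2 fold changes of acute against healthy were 0.18, -0.07, 0.27 and -0.67 for these 4 genes, 0.64 for Igf1, 0.32 for Mdk and -0.55 for Bdnf, and those of chronic against healthy were -0.05, 0.18, -0.17, -0.37, 0.62, -0.02 and 0.43, none past the test. Of the fibroblast genes, Lum was at 35.6 and 80.3 CPM in the healthy, 40.9 and 101 CPM in the acute and 338 and 188 CPM in the chronic libraries (log2 fold change 2.37 ± 0.55 (SE) in chronic against healthy, adjusted p = 0.801, edgeR). Chodl had -1.99 and Cd34 -1.36 in acute against healthy, on few UMIs in acute replicate 1 (3.71 and 14.9 CPM). Clec3b was at 53.6 and 62.1 CPM in the healthy, 37.1 and 64.0 CPM in the acute and 184 and 39.2 CPM in the chronic libraries and Efemp1 at 119 and 145 CPM in the healthy, 115 and 170.0 CPM in the acute and 276 and 62.7 CPM in the chronic libraries, where chronic replicate 1 was above and chronic replicate 2 below both healthy libraries. For the factors Hoxa10, Pitx1 and Tcf4 the chronic values were -0.28, -0.39 and -0.31. None of these passed.

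Many interferon response genes separated acute from healthy members, without passing the test. Of 26 tested genes, 18 were higher in both acute than in both healthy libraries, whereas 16.0% of all genes were, and the median log2 fold change was 0.87 beside -0.02. Ifit3, which interferon induces, was at 11.6 and 1.51 CPM in the healthy, 119 and 219 CPM in the acute and 92.1 and 23.5 CPM in the chronic libraries (log2 fold change 4.40 ± 0.65 (SE), adjusted p = 0.0749, edgeR), and Isg15, a ubiquitin-like modifier, at 107 and 9.09 CPM in the healthy, 364 and 399.9 CPM in the acute and 102 and 149 CPM in the chronic libraries. Ifit1 had a log2 fold change of 2.82, Irf7 of 2.23, Usp18 of 2.20, Bst2 of 1.84, Xaf1 of 1.61 and Rtp4 of 1.54. DESeq2 called Ifit3 and Ifit3b. In the chronic libraries 6 of the 26 were above both healthy libraries, against 10.2% of all genes, with a median of 0.21.

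Low-contractile cells showed the same separation, with 17 of 26 interferon genes higher in both acute than in both healthy libraries (16.1% of all genes tested there) and a median of 0.99. A test of the injury effect in contractile minus low-contractile cells found 0 of 5999 genes in edgeR, with 134 at an unadjusted p below 0.05 and 0 in DESeq2, so that no acute change was shown to be particular to the contractile class. It gave 16 calls without acute replicate 1 and 9 without acute replicate 2, where the 1 acute library left is assumed to vary like the other groups.

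In the chronic libraries many p53 targets lay above the healthy libraries, without passing the test. Of 17 tested genes 10 were higher in both chronic than in both healthy libraries (10.2% of all genes) and the median log2 fold change was 1.24 beside -0.04. Trp53inp1, which p53 induces in stressed cells, was at 26.0 and 19.7 CPM in the healthy, 40.9 and 65.3 CPM in the acute and 123 and 329 CPM in the chronic libraries (log2 fold change 3.46 ± 0.51 (SE), adjusted p = 0.243, edgeR). The cell cycle inhibitor Cdkn1a (p21) was at 589 and 377 CPM in the healthy, 1069.6 and 621 CPM in the acute and 1801 and 1929 CPM in the chronic libraries (log2 fold change 2.11 ± 0.38 (SE), adjusted p = 0.551, edgeR), so that the groups did not overlap. Phlda3, Mdm2, Ccng1 and Sesn2 had 1.64, 1.97, 1.64 and 3.01. In the acute libraries 9 of 17 were above both healthy libraries, against 16.0%, with a median of 0.46, and Bax had 1.16. DESeq2 called Cdkn1a and Trp53inp1 in chronic members, and low-contractile cells had 12 of 16 p53 targets above both healthy libraries (12.2% of all genes tested there) with a median of 1.45. The chronic libraries held only 35 and 36 members. In the same cells 21 of 23 immediate-early genes, which cell stress and dissociation induce, had values above 0 in chronic against healthy (median 0.59). Without overlap 4 were higher and 2 lower (10.2% and 26.9% of all genes). Fos was at 4047 and 4184 CPM in the healthy, 4007 and 2294 CPM in the acute and 5680.5 and 6227 CPM in the chronic libraries. The median of 15 heat shock genes was 0.31, with 0 higher and 3 lower without overlap. The part of either list in the p53 values was not tested.

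**Figure D5:**
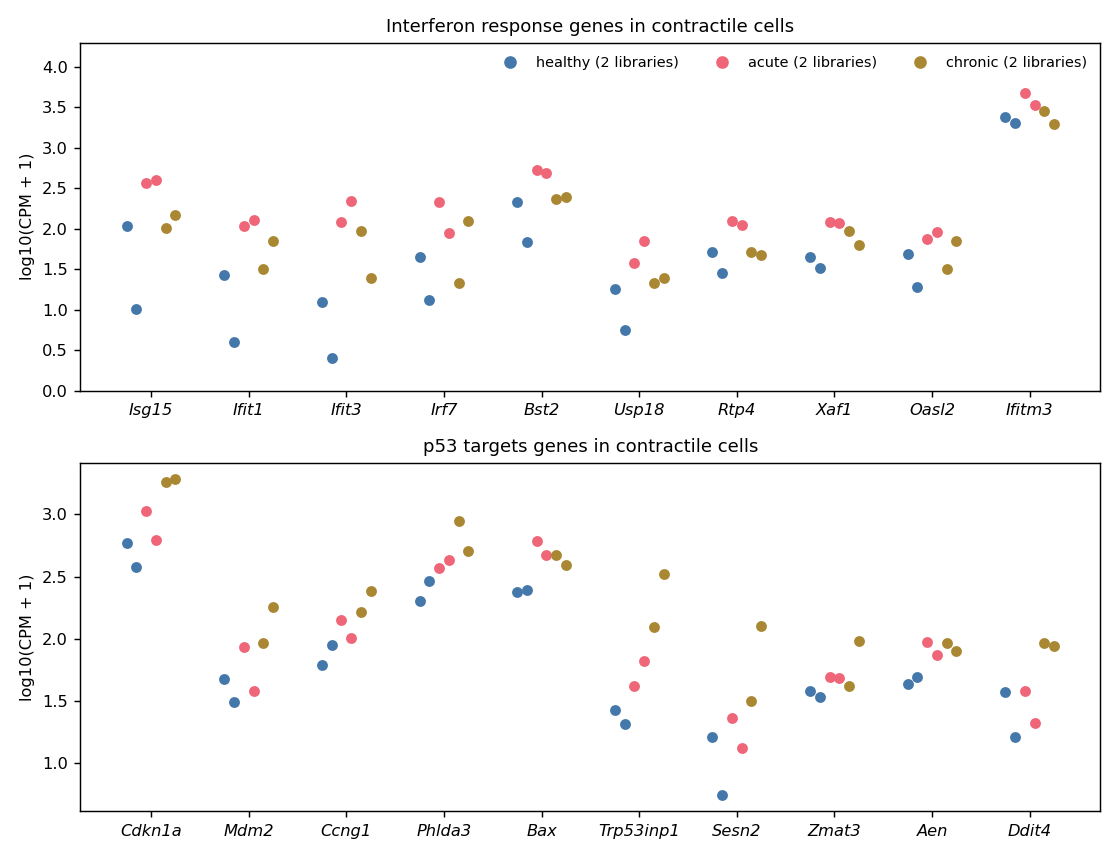
Level in contractile cells of 10 interferon response genes (top) and 10 p53 targets (bottom), as log10(CPM + 1) with a point per library coloured by condition. Ifit3 and Isg15 are highest in both acute libraries and Cdkn1a and Trp53inp1 in both chronic libraries, none of them past an adjusted p of 0.05 in edgeR.

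Other genes with the largest differences are values and not calls. Higher in acute members were H19 (3.87), which was at 149 CPM in acute replicate 1 and 7.55 CPM in acute replicate 2, and Aaed1 (2.34), and lower was Pi16 (-2.26), a gene of the rule. Higher in chronic members were Ltc4s, which makes leukotriene C4 (5.002), and Gfod2 (3.24), and lower were the Wnt-induced Wisp1 (Ccn4, -4.06) on 1 UMI in both chronic libraries together and the heparin-binding growth factor Ptn, at 96.8 and 65.1 CPM in the healthy, 159.7 and 99.6 CPM in the acute and 0 and 7.84 CPM in the chronic libraries (log2 fold change -4.03 ± 0.91 (SE), adjusted p = 0.789, edgeR), where the chronic value was 1 UMI in all. Between acute and chronic members Ptprk (3.74), Diaph2 (3.35) and Gapvd1 (3.20) were higher in acute, each on 1 UMI in both chronic libraries together, and Has1, a gene of the rule, Chodl and Gm26802 (-3.76, -2.93 and -2.77) were higher in chronic members. The urothelial marker list, summed in contractile cells, was at 10180 and 22498 CPM in the healthy, 8566 and 17185 CPM in the acute and 19160 and 14847 CPM in the chronic libraries, 7089.5 to 15623.5 CPM of it from S100a6 alone, and its part in these values was not tested.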

How the data were processed

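The authors generated droplet-based 3' single-cell libraries from the bladder mucosa of mice, aligned the reads to mm10 and counted them with Cell Ranger, per the labels and the paper's methods, and deposited 1 table of raw UMI counts per library, without normalization. No table held a cell with over about 10.0% mitochondrial UMIs. The table of healthy replicate 1 ends in a cut-off line, which was left out, genes seen in fewer than 8 cells (healthy replicate 1) or 6 cells (acute replicate 1) are missing from those tables, and genes were limited to the 14338 in all 6 tables outside mitochondrial and ribosomal genes. The tables held 54604109 to 111985678 UMIs and, per cell, medians of 5530 to 9138 UMIs. No explicit removal of doublets preceded the main results, and cells called by Scrublet (scanpy 1.11.5, with the expected rate set by the number of cells) were left out as an alternative.

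Cells were selected from the raw counts as the report states, in Python 3.11.15 with scipy 1.17.1. The members and gene lists were chosen with earlier results of these data known. Classes with 20 or more cells in a library were added up and tested in R 4.3.3 by the quasi-likelihood method of edgeR 4.0.16, after filterByExpr and TMM scaling, with Benjamini-Hochberg adjustment at 0.05, with genes of the selection rule kept out of calls between the classes. CPM are TMM-scaled in tests and plain across cell groups. Shares carry 95% Wilson intervals and were compared by exact permutation over libraries. Genes were named by a rule: the 12 largest rises and 8 largest falls between the classes (at least 50 CPM, same direction in every library), the 5 largest each way between conditions (libraries not overlapping, unadjusted p below 0.05 where too few passed, as values), the genes the paper singles out, and per list the 2 most abundant members and up to 4 past the test. Other genes named, such as Actn1, Lox, Thbs2 or Ifit3b, were picked after their values were seen, and a few genes that the rule names are not reported here. The tests were tried on simulated data. Alternatives were DESeq2 1.42.0, other size factors, no filter, a stricter contractile limit, doublets or keratin-bearing cells left out, thinning, each library left out and other blocks.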

Additional observations from a re-analysis of the deposited data

Results flagged for a closer look

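The following genes were marked because every acute library lay on one side of both healthy libraries and every chronic library on the other, in contractile cells. The difference between the acute and the chronic effect was not tested as such, each value comes from 2 libraries against 2 that share the healthy libraries, and none passed an adjusted p of 0.05 in edgeR. Ptn had log2 fold changes of 0.62 in acute and -4.03 in chronic against healthy, the latter resting on 1 UMI in both chronic libraries together. Has1, a hyaluronan synthase and a gene of the selection rule, had -1.95 and 1.81, at 17.6 and 80.3 CPM in healthy, 14.9 and 11.1 CPM in acute and 123 and 157 CPM in chronic libraries. The caveolar gene Cav1 had -0.81 and 0.71, with 108 and 208 CPM in the healthy, 81.7 and 95.3 CPM in the acute and 225 and 235 CPM in the chronic libraries. Fos had -0.37 and 0.69, Hoxa10 had 0.50 and -0.28, and Cst3 had 0.22 and -0.38.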

How the results depend on the processing

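All 20 leading genes of the class comparison kept their direction in the alternatives that tested them and lost a call only as Map1b did with few keratin UMIs and without acute replicate 2, and as 12 genes did without the library block. The count of 765 genes between the classes was 423 with called doublets left out, 324 with at most 2 keratin UMIs (3 libraries), 475 with DESeq2 and 11 with no library block and no replicate block, and 368 to 900 with each library left out. Perp turned from -0.69 to 0.24 with at most 2 keratin UMIs, Hba-a1 to -0.43 with DESeq2, and with a library left out Hbb-bs ranged from -0.501 to 4.13 and Hba-a1 from -0.699 to 3.04, below 0 only without healthy replicate 1. Called doublets left out gave 1 and no filter 3 genes for the acute effect between the classes (0 at first), and leaving out libraries 0 to 16. For acute against healthy (3 genes) there were 0 with at least 10 contractile UMIs, 0 with at most 2 keratin UMIs, 5 with DESeq2, 84 without a filter and 0 to 58 with a library left out. For chronic against healthy (0) there were 5 with DESeq2, 29 without a filter and 0 to 7 with a library left out, and for acute against chronic (0) 2 after thinning, 42 without a filter and 0 to 25. The cause of these shifts was not tested. With at least 10 contractile UMIs or at most 2 keratin UMIs the chronic libraries fell below 20 cells and gave no comparison of genes. The chronic share difference was -28.6 percentage points with at most 2 keratin UMIs (resting on 0 of 2 and 8 of 18 chronic cells) and -6.10 as a share of all mesenchymal cells. It was -2.92 after thinning, which left out cells under 3000 UMIs and rested on 16 of 26 and 24 of 103 chronic cells. With a library left out it was -22.7 to -12.8, and the acute one -19.3 to 8.77. With a replicate block acute against healthy gave 4 genes and the others 0. The replicate differences correlated at 0.41 between healthy and acute, -0.15 between healthy and chronic and -0.08 between acute and chronic libraries. The paper states that the samples were handled in batches, and its text does not say which library was in which. Whether equal replicate numbers mark a shared batch was not tested, and the main fit of conditions held no block. Contractile apparatus genes that rose numbered 8 to 31 and interstitial matrix genes 0 to 21 over all alternatives, counts looked at after seeing the data. The lowest came without the library block, with 8 of 27 and 0 of 42, where 10 of 4469 genes rose in all. The 31 were of 37 without a filter, where 502 of 14251 genes rose in all. Depth limits the chronic comparisons, where 1 UMI is 8.56 to 11.4 CPM.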
